A study of Drosophila melanogaster with 3 samples.

Results

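Nuclear tRNA genes were examined for peaks of Combgap in Drosophila melanogaster embryos. The members were all genes of biotype tRNA on the nuclear chromosomes in the dm6 annotation, 290 of 18164 annotated nuclear genes once transposable elements were set aside. The data were chromatin immunoprecipitation and sequencing (ChIP-seq) peak lists from whole embryos of mixed sex, collected over 0 to 24 h. The line was cg-GFP, a stable transgenic line in which green fluorescent protein is joined to the C-terminal end of Combgap, and an antibody against GFP was used. The labels gave 1 group of 3 biological replicates and no second condition, so nothing was compared between conditions. The labels call it an insertion targeting cg and do not name the driving promoter. Tissues and ages of the embryo were mixed in every library, and read depth is unknown. A thresholded list of 7913 summits (selected by irreproducible discovery rate, IDR) and a pooled list of 30000 summits covered the series, and each replicate had a list of 30000. A gene was counted as having a peak when a summit lay within 1 kb of its start.

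Transfer RNAs carry amino acids to the ribosome, and their genes are transcribed by RNA polymerase III. The promoter lies inside the gene: the factor TFIIIC binds internal elements called the A box and the B box and brings TFIIIB and the polymerase to the start. Flies carry most tRNA genes in many near-identical copies, often in small clusters. Combgap is a zinc-finger protein known for binding GTGT elements and for ties to Polycomb recruitment. A gene name gives the amino acid, the anticodon and a copy number, as in tRNA:Lys-TTT-1-1.

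The 290 genes covered 22 isotypes, with the initiator methionine (iMet) and selenocysteine (SeC) tRNAs counted apart, and 45 anticodons. Their bodies were 71 to 186 bp long (median 73) and had 95 distinct sequences, so most genes had an identical copy elsewhere, up to 13 in all. More than 1 exon was annotated for 16 genes. The genes lay in 144 loci when starts at most 5 kb apart were joined. Of these loci, 76 held a lone gene and 68 held a cluster, with 214 genes between them. A protein-coding transcription start site (TSS) lay within 1 kb of 79 genes and farther from 211. Introns of protein-coding genes held 127 members, 7 overlapped a protein-coding exon, and 156 lay outside protein-coding genes.

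The gene bodies below show the internal promoter, with the B box core TTCNANNC in capitals, for members with a thresholded peak within 1 kb. The aspartate genes tRNA:Asp-GTC-1-5 (chr2L:8541761-8541832, plus strand) and tRNA:Asp-GTC-2-1 (chr2L:5240766-5240837, plus strand) differ by the substitution G51T, counted from 1 at the 5′ end of the gene. The lysine gene tRNA:Lys-TTT-1-1 (chr2L:8290727-8290799, plus strand) lies in an intron of Btk, which encodes a tyrosine kinase. Sequences are from the RefSeq release 6 assembly, which is dm6.
tRNA:Asp-GTC-1-5: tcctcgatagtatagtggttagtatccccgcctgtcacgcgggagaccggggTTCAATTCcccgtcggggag
tRNA:Asp-GTC-2-1: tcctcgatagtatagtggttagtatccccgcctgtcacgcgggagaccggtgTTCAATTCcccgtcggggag
tRNA:Lys-TTT-1-1: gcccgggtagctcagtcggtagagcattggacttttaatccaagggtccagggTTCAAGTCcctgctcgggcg

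The next set shows each summit base with 100 bp on either side, for thresholded summits near tRNA genes, with GTGTGT of either strand in capitals (ACACAC on the strand printed). These windows show that the summits themselves lay in flanking DNA. The first 3 hold the motif, at summits of tRNA:Asp-GTC-1-5 (chr2L:8542094-8542294), tRNA:Phe-GAA-1-3 (chr2L:8570562-8570762) and tRNA:Gln-CTG-2-5 (chr2L:2014018-2014218). The last 2 do not, at the closer summit of tRNA:Phe-GAA-1-2 (chrX:6743880-6744080) and at tRNA:Leu-TAA-1-1 (chr3R:20605374-20605574). All are written on the plus strand.
tRNA:Asp-GTC-1-5: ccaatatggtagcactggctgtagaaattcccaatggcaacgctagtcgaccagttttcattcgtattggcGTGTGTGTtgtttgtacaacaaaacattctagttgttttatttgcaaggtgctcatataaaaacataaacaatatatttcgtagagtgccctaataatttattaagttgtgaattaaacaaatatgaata
tRNA:Phe-GAA-1-3: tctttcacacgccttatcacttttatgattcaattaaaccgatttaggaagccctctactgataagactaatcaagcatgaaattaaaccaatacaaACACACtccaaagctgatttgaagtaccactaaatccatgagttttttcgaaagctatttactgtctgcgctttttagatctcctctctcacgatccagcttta
tRNA:Gln-CTG-2-5: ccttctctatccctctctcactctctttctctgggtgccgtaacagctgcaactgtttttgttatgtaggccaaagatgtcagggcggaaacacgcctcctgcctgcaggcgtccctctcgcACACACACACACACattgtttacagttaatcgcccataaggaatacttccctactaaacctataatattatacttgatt
tRNA:Phe-GAA-1-2: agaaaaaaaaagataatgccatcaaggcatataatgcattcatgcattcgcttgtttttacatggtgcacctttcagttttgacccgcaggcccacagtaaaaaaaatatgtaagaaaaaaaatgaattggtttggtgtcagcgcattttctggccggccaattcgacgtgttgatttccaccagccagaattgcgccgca
tRNA:Leu-TAA-1-1: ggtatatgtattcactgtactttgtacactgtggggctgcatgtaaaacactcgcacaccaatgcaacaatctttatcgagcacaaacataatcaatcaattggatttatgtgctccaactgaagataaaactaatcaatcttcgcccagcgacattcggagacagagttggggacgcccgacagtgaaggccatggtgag

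Few tRNA genes had a thresholded Combgap peak, and many more had a weaker one. A thresholded summit lay within 1 kb of 29 of 290 tRNA genes (10%), against 19.7% of all 18164 nuclear genes and 21.3% of 13945 protein-coding genes. The 29 genes lay in 20 of the 144 loci. The snoRNA genes, another class of short noncoding genes, stood at 27 of 269 (10%), and other ncRNA genes at 17%. The pooled share was 103 of 290 tRNA genes (35.5%), against 40.1% of all nuclear genes 41.5% of protein-coding genes and 31.2% of snoRNA genes. The tRNA share was thus nearer to the background in the pooled list than in the thresholded list. Of the tRNA genes with a pooled peak, 28.2% also had a thresholded peak, against 49.3% of all nuclear genes. The share was 51.3% for protein-coding genes and 32.1% for snoRNA genes, near that of tRNA genes. Counted by summit, 26 of 117 pooled summits near tRNA genes were also thresholded (22.2%), against 26.4% of all 30000. Genes are not replicates and the design has no second condition, so no test of these differences was made.

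**Figure D1:**
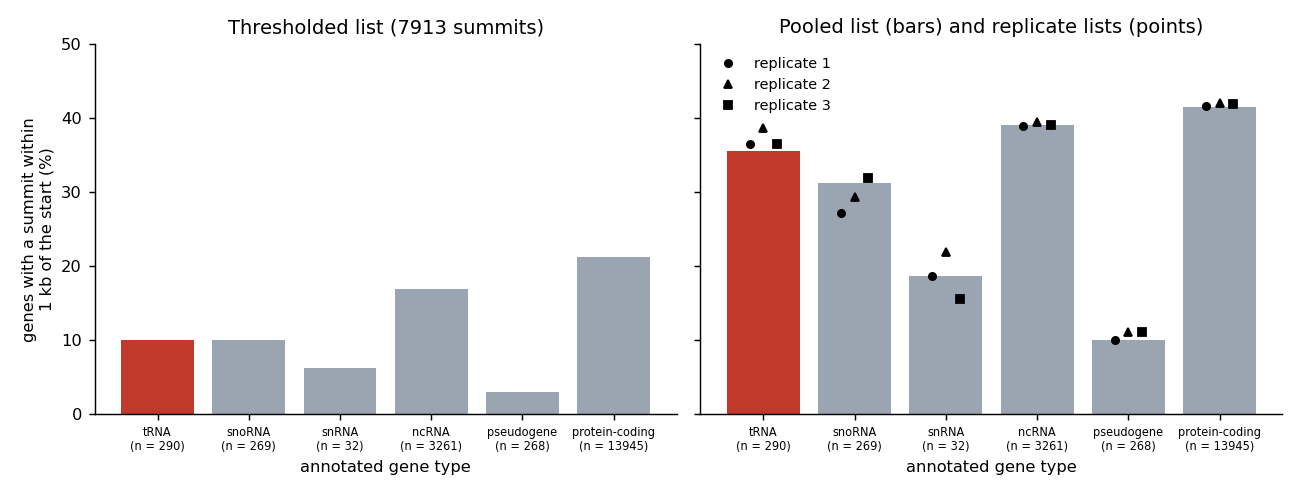
Percentage of genes of each annotated type with a summit within 1 kb of the start (y axis), for the thresholded list (left) and for the pooled list (right, bars) with each replicate list as a point. The tRNA bar is at 10% on the left and 35.5% on the right, and the protein-coding bar at 21.3% and 41.5%.

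The replicate lists gave similar tRNA counts. A summit lay within 1 kb of 106 tRNA genes in replicate 1, 112 in replicate 2 and 106 in replicate 3, or 36.6, 38.6 and 36.6% of tRNA genes (37.2% ± 1.19, SD, n = 3). The same measure over all nuclear genes was 40.4% ± 0.246, above the tRNA share in each replicate. A peak in all 3 replicate lists was found at 83 tRNA genes (28.6%), against 34% of all nuclear genes. Selection by IDR favours peaks found in several replicates, so agreement of thresholded peaks with the replicate lists was largely fixed in advance. Of the 29 genes with a thresholded peak, 27 had a peak within 1 kb in all 3 replicate lists. The exceptions were tRNA:Gly-GCC-1-12, whose nearest summit in replicate 2 lay 1012 bp away, and tRNA:Trp-CCA-2-4, whose nearest summits in replicates 1 and 2 lay 1055 and 1112 bp away.

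The share of tRNA genes with a thresholded peak was close to the share of DNA near a summit. Within 1 kb of a thresholded summit lay 10% of tRNA genes and 8.87% of all bases on the 6 chromosome arms. For the pooled list the shares were 35.5% of tRNA genes and 27.6% of bases. The tRNA genes were then split by distance to a protein-coding TSS, and the order of the groups depended on the distance allowed to a summit. Among the 79 tRNA genes within 1 kb of a protein-coding TSS, 13 had a thresholded peak (16.5%), against 20.1% of bases that close to such a TSS. Among the 211 farther away, 16 had a thresholded peak (7.58%), against 6.01% of bases that far. With thresholded summits within 500 bp the order was the reverse, with 2 of the 79 near genes (2.53%) and 8 of the 211 farther away (3.79%). In the pooled list the near share was also the lower at 1 kb. Farther from a protein-coding TSS, 79 of 211 tRNA genes had a pooled peak (37.4%), against 24.1% of bases, and the replicates gave 39.7% ± 0.274 (SD, n = 3). Within 1 kb of a protein-coding TSS, 24 of 79 had a pooled peak (30.4%), against 41.3% of bases, and the replicates gave 30.8% ± 5.12. The replicate ranges of these groups, 27.8 to 36.7% near and 39.3 to 39.8% away, did not overlap. Over all nuclear genes the replicates gave 40.4%, close to the away group. The 3 lists score the same genes, so the SD is a spread between lists and does not measure uncertainty between groups of genes.

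**Figure D2:**
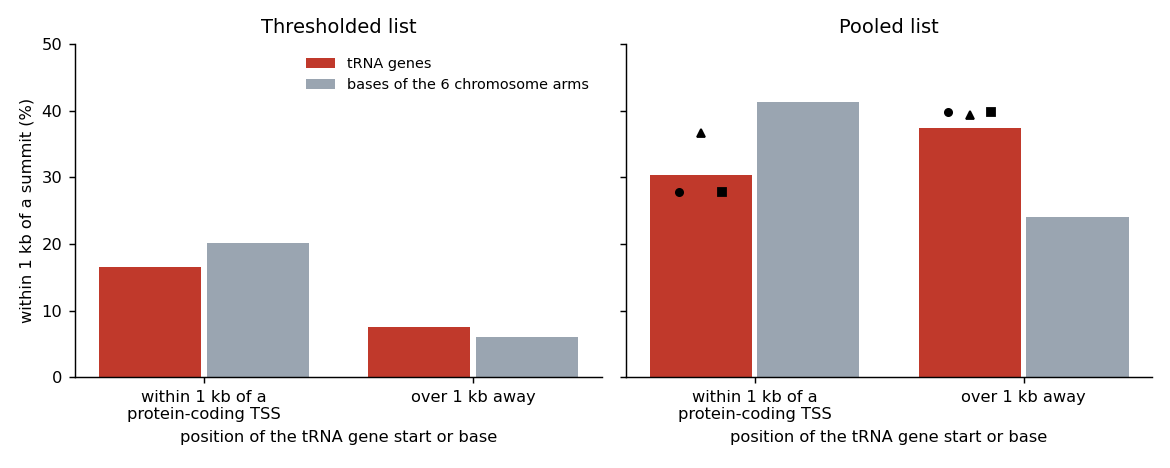
Percentage of tRNA genes (red) and of bases (grey) within 1 kb of a summit (y axis), split by whether a protein-coding TSS lies within 1 kb, for the thresholded and the pooled list. Points on the right are the 3 replicate lists. Away from such sites the tRNA bar is 37.4% and the base bar 24.1% in the pooled list.

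Clustered tRNA genes were set beside lone ones. A thresholded peak lay at 23 of 214 clustered genes (10.7%) and at 6 of 76 lone genes (7.89%). Pooled counts were 73 of 214 (34.1%) and 30 of 76 (39.5%). Over all nuclear genes the shares were 19.7% thresholded and 40.1% pooled, the latter close to that of lone genes. Of the 61 clustered genes near a protein-coding TSS, 12 had a thresholded peak (19.7%), against 11 of the 153 clustered genes farther away (7.19%). Both were near the shares of bases at those distances, 20.1% and 6.01%. Of the 18 lone genes near such a TSS, 1 had a thresholded peak (5.56%), against 5 of the 58 farther away (8.62%). Genes of a cluster can share a summit, so these genes are not independent. Introns of protein-coding genes held 10 members with a thresholded peak of 127 (7.87%), and DNA outside such genes held 18 of 156 (11.5%).

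Thresholded summits were sparse at the tRNA genes themselves and more frequent in their flanks. The thresholded list held 26 distinct summits within 1 kb of a tRNA start, of which 9 lay within 500 bp and 2 within 100 bp. None lay inside a tRNA gene body. Counted per gene, 10 summits fell within 500 bp and 25 between 500 and 1000 bp of a tRNA start, a ratio of 0.4. At protein-coding starts the same ratio was 1.91, with 2810 and 1471 summits. In the replicate lists the ratio was 0.777 ± 0.0669 for tRNA genes and 1.97 ± 0.108 for protein-coding genes (SD, n = 3), and the replicate values did not overlap. This SD is a spread between lists that score the same genes. The tRNA ratio overlapped that of snoRNA genes, 0.869 ± 0.126. The density within 500 bp of a tRNA start was 0.0345 thresholded summits per kb per gene, below the genome mean of 0.0591 per kb. From 500 to 1000 bp it was 0.0862 per kb. For pooled summits the inner density was 0.255 per kb and the genome mean 0.224 per kb.

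**Figure D3:**
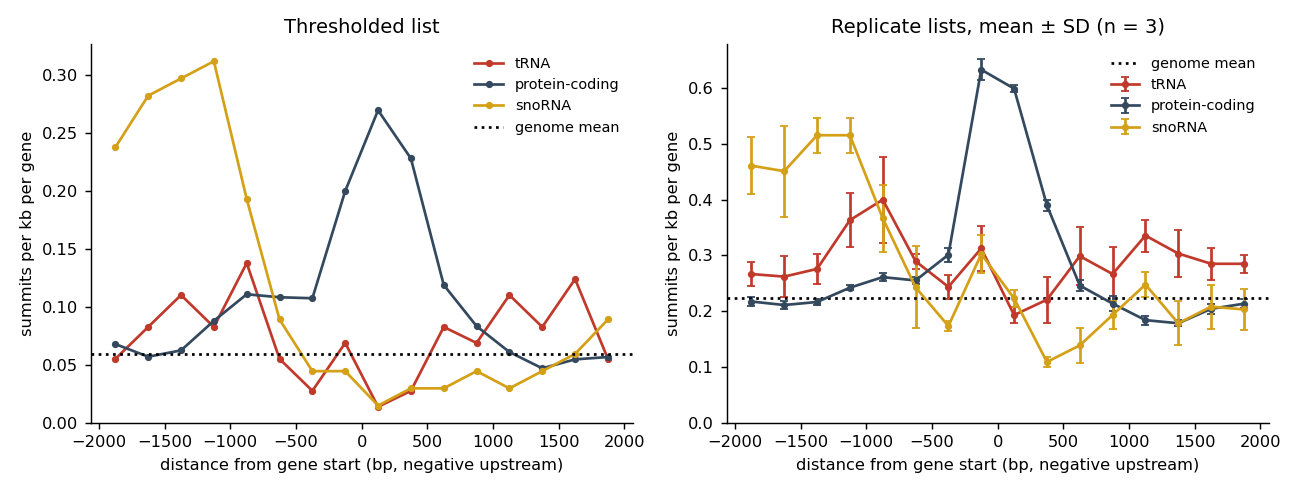
Summits per kb per gene (y axis) by signed distance from the gene start in bp (x axis, bins of 250 bp) for tRNA, protein-coding and snoRNA genes, in the thresholded list (left) and as mean ± SD over the 3 replicate lists (right). Protein-coding genes peak at the start. The tRNA line on the right lies above the genome mean of 0.224 per kb in most bins and below it in the first 500 bp downstream of the start.

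Summits near tRNA genes spanned ranks 50 to 7869 of the thresholded list, where rank 1 is the highest signal. Their median rank was 5013.5, against 3957 for the list, 9 of 26 lay in the stronger part of the list above its median rank, and 3 were among the 1000 highest. All 26 had a summit within 200 bp in each of the 3 replicate lists, which selection by IDR favours. A tRNA start was nearer than any protein-coding TSS for 15 of the 26, and a protein-coding TSS was nearer for 11. Starts of other gene types were not compared. These 11 lay within 500 bp of that TSS (42.3%), against 41.7% of the whole thresholded list. Upstream of the nearest tRNA gene lay 16 summits and downstream 10.

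**Figure D4:**
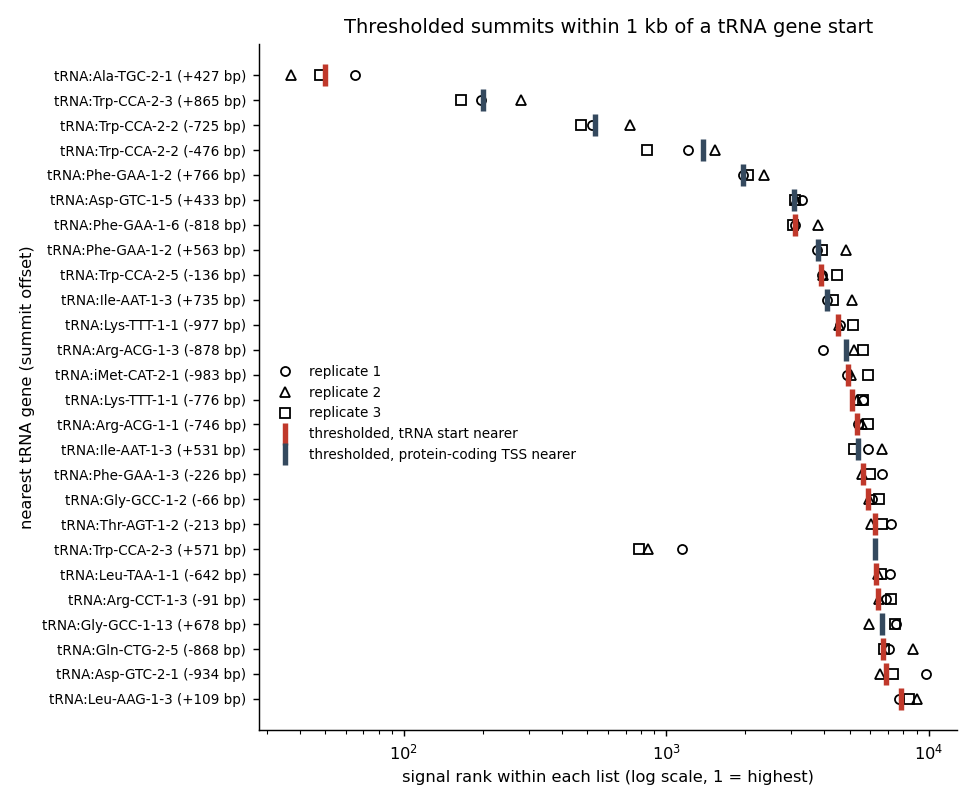
Signal rank (x axis, log scale, 1 is highest) of the 26 thresholded summits within 1 kb of a tRNA start, in the thresholded list (bars) and in the 3 replicate lists (open symbols). Each row names the nearest tRNA gene and the offset of the summit from its start, and bar colour shows whether the tRNA start or a protein-coding TSS is nearer. The highest is at rank 50, and the lowest at rank 7869.

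The strongest peak near tRNA genes lay beside a pair of alanine tRNA genes on 2R. The summit at 17392642 ranked 50 in the thresholded list, with ranks 65, 37 and 48 in replicates 1, 2 and 3. It lay 427 bp downstream of the start of tRNA:Ala-TGC-2-1 and 797 bp upstream of that of tRNA:Ala-TGC-1-1. Neither gene has an identical copy. The nearest protein-coding TSS, that of CG10939, was 1951 bp away, and GTGTGT lay within 100 bp of the summit.

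Tryptophan tRNA genes followed, beside protein-coding start sites. On 2R, the summit at 21160269 ranked 200 and stood at 197, 280 and 165 in the replicates. It lay 865 bp downstream of the start of tRNA:Trp-CCA-2-3 and 132 bp from the TSS of CG30389. Near tRNA:Trp-CCA-2-2, the summit at 18638832 on 2R ranked 534, with replicate ranks 519, 726 and 473. That summit also lay within 1 kb of tRNA:Gly-GCC-1-9, and 438 bp from the TSS of CG30122. The third tryptophan locus held tRNA:Trp-CCA-2-5, in an intron of Pu, the gene for GTP cyclohydrolase. Its summit at 21181148 on 2R lay 136 bp upstream of the start at rank 3889, with replicate ranks 3912, 3965 and 4455. The tRNA start there was closer than the nearest protein-coding TSS, which was 2029 bp away.

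Phenylalanine and aspartate genes gave the highest ranks outside 2R. Near tRNA:Phe-GAA-1-2 on X, the summit at 6743777 ranked 1962, with replicate ranks 1956, 2357 and 2056. It lay 394 bp from the TSS of RpL17, a ribosomal protein gene. The pair tRNA:Asp-GTC-1-4 and tRNA:Asp-GTC-1-5 on 2L shared a summit at 8542194, of rank 3063. Its replicate ranks were 3288, 3134 and 3095, and it lay 47 bp from a TSS of Sema1a, which encodes a semaphorin of axon guidance. Near tRNA:Phe-GAA-1-6 on 3R, the summit at 13797135 ranked 3090, with replicate ranks 3102, 3781 and 3048. No protein-coding TSS lay within 14370 bp of it. GTGTGT lay within 100 bp of these 3 summits.

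The last of the named genes were an isoleucine and a lysine gene. The summit at 13429620 on 2R lay 735 bp downstream of tRNA:Ile-AAT-1-3 and 275 bp from a TSS of ATP8A, a phospholipid flippase gene. It ranked 4086, with replicate ranks 4098, 5097 and 4322. The summit at 8289750 on 2L lay 977 bp upstream of tRNA:Lys-TTT-1-1 and ranked 4511, with replicate ranks 4589, 4565 and 5150. The closest thresholded summit to any tRNA start was 66 bp upstream of tRNA:Gly-GCC-1-2 on 2L, at rank 5862, and was chosen for mention after its values were seen. Likewise chosen was the summit 571 bp downstream of tRNA:Trp-CCA-2-3: it ranked 6267 in the thresholded list, but the nearest summits in replicates 1, 2 and 3 ranked 1152, 851 and 784.

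The limit of 1 kb decided some calls. Just inside it were tRNA:iMet-CAT-2-1 at 983 bp and tRNA:Leu-CAA-2-1 at 991 bp from the nearest thresholded summit. Just outside were tRNA:Thr-AGT-2-1 at 1003 bp and tRNA:Lys-CTT-1-1 at 1025 bp. All 4 are on 2R. The median distance to the nearest thresholded summit was 7902.5 bp for tRNA genes and 7487 bp for protein-coding genes.

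Among the 74 genes with a pooled peak but no thresholded one, ranks began at 8313 of 30000. All 7913 thresholded summits were also pooled summits, and the 26 near tRNA genes had the same rank in both lists. That the ranks began below those of thresholded summits was thus largely fixed in advance. The highest was that of tRNA:Asp-GTC-1-1 in an intron of tkv, a Dpp receptor gene, where the summit 671 bp downstream ranked 8313. The best summits within 1 kb of it in replicates 1, 2 and 3 ranked 8617, 11970 and 7428. Next came tRNA:Lys-CTT-1-1 in an intron of EcR (8680), tRNA:Leu-TAA-2-1 (8831) and tRNA:Val-CAC-2-5 (8927). A summit at rank 9174 was shared by tRNA:Ser-TGA-1-1 and tRNA:Ser-TGA-2-1, with best replicate ranks 8560, 12046 and 10691. The pooled list held 117 summits within 1 kb of a tRNA start, and 77 of them had a summit within 200 bp in all 3 replicate lists. The same count over all 30000 pooled summits was not made, so it is unknown whether this share is high or low. A pooled summit lay inside the body of a tRNA gene in 6 cases, the highest at rank 10813, 26 bp into tRNA:iMet-CAT-1-2.

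Isotypes differed in how many of their genes had a peak. Thresholded peaks lay at 5 of 8 tryptophan genes, 3 of 8 phenylalanine, 3 of 14 aspartate, 4 of 20 glycine and 4 of 26 arginine genes. Over all nuclear genes the share was 19.7%, near that of aspartate (21.4%), glycine (20%) and arginine (15.4%) genes. The 5 tryptophan genes lay at 3 loci, and 4 of them were within 1 kb of a protein-coding TSS. No thresholded peak lay at any of 20 serine, 19 glutamate, 17 proline, 15 valine, 10 asparagine, 10 tyrosine, 7 cysteine, 6 elongator methionine or 5 histidine genes, or at the SeC gene. Among these, pooled peaks lay at 8 glutamate (42.1%), 7 serine (35%), 4 valine (26.7%) and 4 tyrosine genes (40%), and at the SeC gene. They also lay at 3 elongator methionine (50%), 3 proline (17.6%) and 1 of the asparagine genes (10%). Over all nuclear genes the pooled share was 40.1%, near that of glutamate and tyrosine genes. Cysteine and histidine genes had no pooled peak. The counts per isotype are small, and genes of a cluster share summits.

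**Figure D5:**
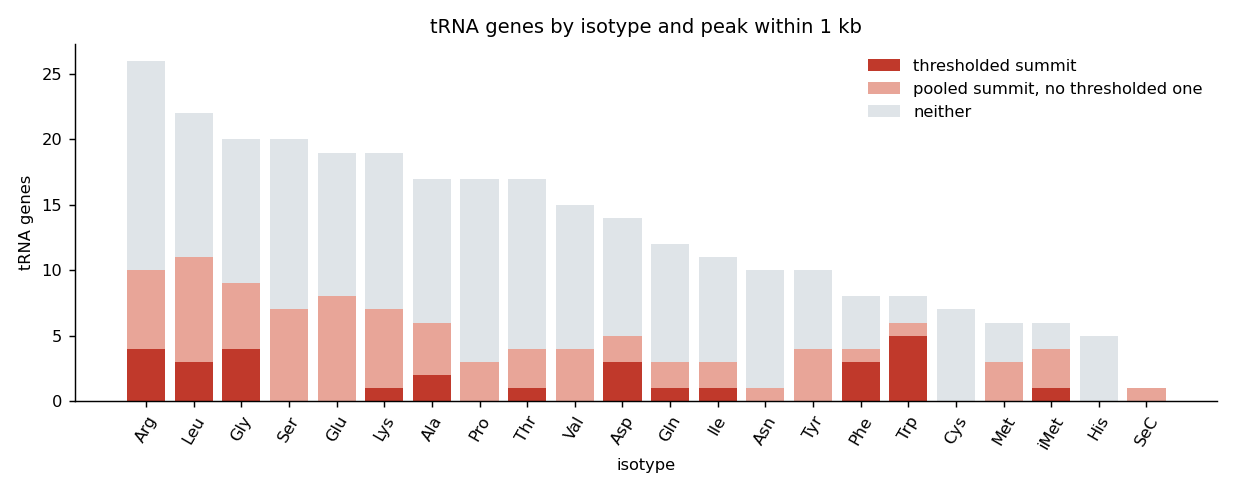
Number of tRNA genes (y axis) of each isotype (x axis), split into genes with a thresholded summit within 1 kb, genes with a pooled summit and no thresholded one, and genes with neither. Tryptophan has 5 of 8 genes with a thresholded summit, and serine, glutamate and proline have none.

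The chromosomes also differed. On 2R, 19 of 98 tRNA genes had a thresholded peak (19.4%), against 19% of all genes there, and on 2L 7 of 41 did (17.1%), against 16.9%. On 3L, 0 of 48 tRNA genes had one, against 19.5% of all genes on 3L, and on 3R 2 of 79 (2.53%), against 19.6%. On X the count was 1 of 24 (4.17%), against 24.8%. Pooled peaks lay at 18 of 41 tRNA genes on 2L (43.9%), against 30.7% of all genes there, and at 47 of 98 on 2R (48%), against 41.4%. On 3L the pooled count was 13 of 48 (27.1%), against 37% of all genes, and on 3R 17 of 79 (21.5%), against 37.5%. On X it was 8 of 24 (33.3%), against 58.2%.

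The largest clusters differed in how many of their genes had a peak. The cluster of 11 genes from tRNA:Val-CAC-1-1 to tRNA:Pro-TGG-1-3 spans 13.9 kb on 3R and codes for valine, proline, threonine and alanine tRNAs. It had no thresholded or pooled peak, and its nearest thresholded summit was 12231 bp away. The cluster of 11 genes from tRNA:Arg-ACG-1-2 to tRNA:Arg-ACG-1-4 spans 10.2 kb on 2R, with 8 of its genes in an intron of EcR, the ecdysone receptor gene. There, 1 gene had a thresholded peak and 5 a pooled peak. The thresholded summit lay 878 bp upstream of tRNA:Arg-ACG-1-3 and 358 bp from a TSS of EcR, at rank 4830. In the replicates, 5, 2 and 9 genes of that cluster had a peak. Of the 7 genes from tRNA:Ile-AAT-1-3 to tRNA:Leu-CAA-1-1 on 2R, 2 had a thresholded peak. The other 2 clusters of 7 genes, on 2R and X, had no thresholded peak. In each of them 3 genes had a pooled peak, from 2 summits that the genes shared.

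The tRNA genes were grouped by how many genes share their exact sequence. A pooled summit lay at 26 of 52 genes with 1 copy (50%), 26 of 103 with 2 to 5 identical copies (25.2%) and 51 of 135 with 6 or more (37.8%). The replicates gave 51.9% ± 0, 25.2% ± 2.57 and 40.7% ± 1.96 (SD, n = 3), and these ranges did not overlap. Here too the SD is a spread between lists that score the same genes, not between genes. Over all nuclear genes the pooled share was 40.1% and the replicate share 40.4%, close to the group with 6 or more copies. Thresholded peaks lay at 7 (13.5%), 4 (3.88%) and 18 (13.3%) genes, against 19.7% of all nuclear genes. How reads that map to several copies were handled is not given in the sources used here, and its part in these counts was not tested.

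The GTGT element was sought as GTGTGT. It lay within 100 bp of 12 of 26 thresholded summits near tRNA genes (46.2%), against 63.3% of all 7913. Of the pooled summits, it lay at 32 of 117 (27.4%), against 41.4% of all 30000. The sequence GAGAGA, known as bound by the Trithorax-like protein, lay at 2 of the 26 (7.69%), against 21.8% of all thresholded summits. Around gene starts, GTGTGT lay within 100 bp of 13 of 290 tRNA genes (4.48%), against 11.9% of all nuclear genes. Within 1 kb the shares were 63.1% and 66.9%. Of the 183 tRNA genes with GTGTGT within 1 kb, 24 had a thresholded peak (13.1%), and of the 107 without it 5 did (4.67%). Over all nuclear genes these shares were 27.1% with the motif and 4.76% without. All motifs were sought on either strand, except in gene bodies.

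The B box was sought in gene bodies and at summits. The full B box consensus lay in the body of 145 of 290 tRNA genes (50%), and the looser core TTCNANNC, which is part of it, in 271 (93.4%). The core was chosen after values were seen, and within 100 bp of gene starts it lay at 94.8% of tRNA genes and 37% of all nuclear genes. Within 100 bp of thresholded summits the full B box lay at 1 of the 26 near tRNA genes, that of tRNA:Leu-AAG-1-3 on 2R at rank 7869, and at 7 of all 7913 (0.0885%). It lay at 9 of 117 pooled summits near tRNA genes (7.69%), against 34 of all 30000 (0.113%). The core lay at 10 of the 26 thresholded summits near tRNA genes (38.5%), against 29% of the list, and at 48 of the 117 pooled ones (41%), against 31%. These summits were picked for lying near tRNA starts, and tRNA gene bodies hold the B box. Position alone can thus raise these shares, and they show no tie between Combgap peaks and the B box.

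The other genes of RNA polymerase III biology were listed with earlier results known. Of 66 listed protein-coding genes, 15 had a thresholded summit within 1 kb of any TSS (22.7%), against 22.9% of all protein-coding genes. A pooled summit was found for 27 (40.9%), against 42.7%.

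The aminoacyl-tRNA synthetase genes, whose products load tRNAs with amino acids, had thresholded peaks at 7 of 20 (35%). The share of all protein-coding genes was 22.9%. GluProRS ranked 806 (826, 880 and 813 in the replicates) and HisRS ranked 828 (834, 904 and 857). ThrRS ranked 2492 and GlyRS 2548, while AlaRS and AsnRS had no thresholded peak. Polymerase III subunit genes had thresholded peaks at 3 of 17 (17.6%), against the same 22.9%. The highest was Polr1D, a subunit shared with polymerase I, at rank 301 (308, 307 and 299 in the replicates). Polr3C and Polr3F ranked 5647 and 5908, and the largest subunit genes Polr3A and Polr3B had no thresholded peak.

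Among 12 genes for polymerase III factors, 1 had a thresholded peak (8.33%), against 22.9% of all protein-coding genes. That gene was Pbp49, for a subunit of the snRNA promoter-binding complex, at rank 4268. Brf and Bdp1, parts of TFIIIB, had no thresholded peak. Of 17 tRNA processing genes, 4 had a thresholded peak (23.5%), near the share of all protein-coding genes. The counts per list are small. Pus1, a pseudouridine synthase gene, ranked 1119 (1155, 1177 and 1132 in the replicates). Pop1, an RNase P subunit gene, ranked 4162 and RtcB, the tRNA ligase gene, 7296. RNaseZ, which trims the 3′ end of tRNAs, and Mt2 had no thresholded peak.

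Other genes transcribed by polymerase III had no thresholded peak within 1 kb. This held for 100 annotated 5S rRNA genes, 4 U6 and U6atac snRNA genes, 2 genes each for 7SL and 7SK RNA, and the RNase P and RNase MRP RNA genes. In the pooled list, RNaseP:RNA (rank 8318), RNaseMRP:RNA (rank 8903) and snRNA:7SKa (rank 12228) had a peak. Over all nuclear genes the shares were 19.7% thresholded and 40.1% pooled. Apart from the 5S genes these classes hold few genes, so little can be read from their counts. The 5S genes are near-identical copies, and a missing peak there is uncertain.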

How the data were processed

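The authors deposited 5 peak lists on dm6. Per the deposited text listings, each replicate list came from its own alignments, the pooled list from all 3 together, and the thresholded list from the others. The deposited signal values are the authors' peak caller output and were used only as ranks within a list. The −log10 q values deposited by the authors had a single value throughout the thresholded list and ranked nothing. The deposited summit offset, treated as a score, placed each summit. The replicate and pooled lists each hold exactly 30000 peaks. All called lists used 1 shared control, which was not analysed here. Aligner, caller and IDR threshold: not given in the sources used here. Read depth is unknown, so no interval was computed.

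Genes came from the Ensembl release 115 annotation, with all 290 tRNA genes at the same positions in RefSeq, and sequence from the release 6 assembly. Computing used Python 3.11.15, numpy 2.4.6, pandas 2.3.3 and matplotlib 3.10.9. A gene start is its annotated 5′ end. Clusters joined starts at most 5 kb apart, and a gene was near a protein-coding TSS within 1 kb. Replicate ranks of a summit are those of the nearest replicate summit within 200 bp. The counting was checked on planted summits. Members and lists were chosen with earlier results of these data known. The named tRNA genes were the 12 with the highest thresholded summits, the 6 highest with only a pooled one, those at the 1 kb limit and the ends of the largest clusters. Of the 72 listed protein-coding symbols, 66 matched, 2 were duplicates and 4 were left out. The values of 1 listed gene are not reported here. Sequence from 2R was not printed, nor any sharing 24 bases with it. No test was made, since the design has 1 group.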

Additional observations from a re-analysis of the deposited data

How the results depend on the processing

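The count of tRNA genes with a peak depended on the distance allowed. With summits within 500 bp, 10 tRNA genes had a thresholded peak (3.45%, against 14.2% of all genes), 56 a pooled peak (19.3%, against 31.2%) and 38 a peak in all replicate lists (13.1%, against 25%). At that distance thresholded peaks lay at 8 clustered (3.74%) and 2 single genes (2.63%). Near a protein-coding TSS they lay at 2 genes (2.53%) and away from it at 8 (3.79%), the reverse of the order at 1 kb. Within 2 kb, 64 tRNA genes had a thresholded peak (22.1%, against 25.3% of all genes). They were 51 of 214 clustered genes (23.8%) and 13 of 76 single genes (17.1%). Near a protein-coding TSS 20 of 79 genes had one (25.3%) and away from it 44 of 211 (20.9%), the same order as at 1 kb. At 2 kb the order against all genes was the reverse of that at 1 kb for the pooled list, with 146 tRNA genes (50.3%, against 48.1%), and for all replicate lists, with 130 (44.8%, against 42.6%). With the stronger part of each list alone, 10 tRNA genes had a thresholded peak (3.45%, against 13.7%), 59 a pooled peak (20.3%, against 28.8%) and 51 a peak in all replicate lists (17.6%, against 24.8%). With a cluster gap of 1 kb, 10 of 107 single genes had a thresholded peak (9.35%), against 6 of 76 above (7.89%). With a limit of 500 bp for near, 6 of 32 near genes had one (18.8%), against 13 of 79 at 1 kb (16.5%). Both classes changed in size, so their counts moved more than their shares. The share of all nuclear genes was 19.7%. Merging overlapping peaks and counting peak intervals moved the thresholded count to 25 and 35. Leaving out each replicate in turn gave 88 to 94 genes with a peak in all remaining lists (30.3 to 32.4%, against 35.9 to 36.3% of all genes). With fewer lists required, these counts could not fall below the 83 of all 3 lists. The thresholded count of 29 could not change when a replicate was left out, since all 26 summits had a partner in every replicate. It says nothing of stability. Unknown depth and peak lists of fixed length limit what a missing peak shows. No paired analysis was possible because the series has 1 group.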

Other observations

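Several clusters had peaks in some replicate lists and not in others. The cluster of 6 genes from tRNA:Cys-GCA-1-1 to tRNA:Cys-GCA-1-4 on 3L had a summit within 1 kb of 4 genes in replicate 2 and of 0 in replicates 1 and 3 and in the pooled list. These 4 genes shared 1 replicate 2 summit, of rank 19204. The cluster of 6 arginine and asparagine genes from tRNA:Asn-GTT-1-10 to tRNA:Arg-ACG-1-10 on 3R had the same counts, with 4 genes in replicate 2 and 0 in the other lists. The cluster of 7 glutamate and iMet genes from tRNA:iMet-CAT-1-1 to tRNA:Glu-CTC-2-2 on 2R had 6 genes with a peak in replicate 1 and 3 each in replicates 2 and 3. There, tRNA:Glu-TTC-1-5, tRNA:Glu-TTC-1-6 and tRNA:Glu-CTC-2-1 had a peak in replicate 1 only, from a shared summit of rank 21930. The cluster of 6 leucine genes from tRNA:Leu-CAG-1-2 to tRNA:Leu-CAG-1-7 on 3L had 5 genes with a peak in every replicate list and in the pooled list, and none with a thresholded peak. Genes of a cluster can share a summit, so a difference of several genes between lists can come from 1 shared summit. These clusters were chosen for mention after their values were seen.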
